A study of Mus musculus with 5 samples.

Results

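Crot, Crat, Cpt1a, Cpt2, Acadm, Acadl, Hadha, Ehhadh and Abcd3 are 9 nuclear genes of fatty acid oxidation, and they were taken by gene name from the 49671 genes of the count table. They were chosen by the measured difference in Crot between the genotypes in these same embryos, with the other 8 genes added as its pathway, so their levels and fold changes are given as descriptions and carry no test. RNA had been sequenced from single mouse embryos on a mixed strain background at ∼E6.75, after removal of the extra-embryonic ectoderm (ExE), which leaves epiblast and visceral endoderm (VE) in every sample. The 2 control embryos (SO+) were Sox2Cre-/-; Oct4 fl/+, with no Cre and with a floxed beside an intact Oct4 allele. The 3 mutant embryos (SO-) were Sox2Cre+/-; Oct4 fl/-, with the Cre transgene and a floxed beside a null Oct4 allele. All 5 embryos thus carried a floxed allele. The Sox2 promoter drives Cre predominantly in epiblast cells, so VE cells should keep the floxed allele intact, and the absence of Cre and of a null allele in SO+ embryos cannot be told apart from the presence of Oct4.

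Fatty acids are broken down by beta-oxidation, which shortens the chain through repeated dehydrogenation, hydration, a second dehydrogenation and thiolysis. Long chains enter mitochondria as carnitine esters, made and unmade by carnitine acyltransferases. Very long and branched chains are first shortened in peroxisomes, which hand medium-chain products to mitochondria, in part as carnitine esters made by Crot. The VE takes up and processes maternal lipids at this stage, whereas the epiblast is known for a strongly glycolytic metabolism.

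Total counts were 27538119 and 27047148 in the SO+ embryos and between 1117566 and 4191498 in the SO- embryos, a mean depth 8.67 times larger in SO+, and the second library index also differed between genotypes. Depth, index and genotype cannot be told apart. Pou5f1, which encodes Oct4, had 920 and 435 CPM (counts scaled to a library total of 1000000) in SO+ embryos and between 12.5 and 43.7 CPM in SO- embryos. Epiblast and VE markers were found in all 5 embryos. Of 10 maternal and blood markers, 7 had no counts in any embryo and the list summed to between 0.895 and 6.10 CPM. Each library is 1 embryo, and p-values measure the spread between these embryos alone.

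Crot (ENSMUSG00000003623) encodes carnitine O-octanoyltransferase, the peroxisomal enzyme that moves medium-chain acyl groups to carnitine. It lies on chromosome 5 of GRCm38 from 8966033 to 8997324 on the minus strand. Crot was higher in every SO- embryo than in either SO+ embryo. It had 38.5 and 55.4 CPM in SO+ embryos 1 and 2, from 1061 and 1498 counts. In SO- embryos 1, 2 and 3 it had 140, 154 and 139 CPM, from 580, 172 and 583 counts. The SO- embryos lay within 1.11-fold of each other, the SO+ embryos within 1.44-fold, and the smallest value in SO- exceeded the largest in SO+ by a factor of 2.51. The log2 fold change of SO- over SO+ was 1.62 (standard error 0.16), a 3.07-fold difference. In bulk samples such as these, more cells of a type that holds Crot RNA and more RNA per cell cannot be told apart. Counting error was small beside this gap: the exact 95% binomial interval was 131.8 to 179 CPM in SO- embryo 2, the shallowest library, and 52.6 to 58.3 CPM in SO+ embryo 2. Intervals here cover counting error only, since the reads carried no molecular identifiers.

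**Figure D1:**
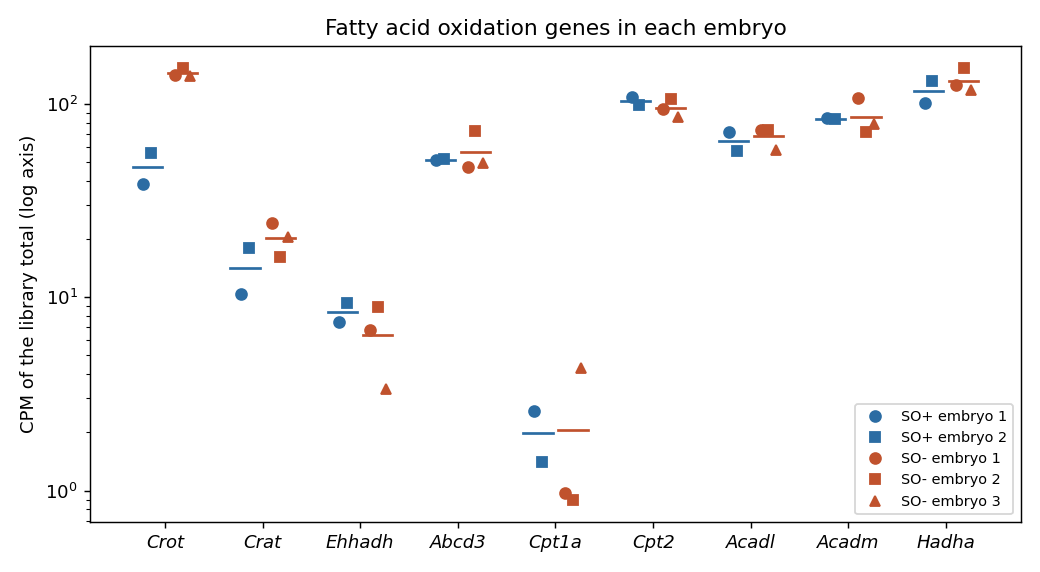
CPM of the library total (log axis) of the 9 genes in each of 2 SO+ (blue) and 3 SO- (orange) embryos, with horizontal lines at the genotype means. Crot lies between 38.5 and 55.4 CPM in SO+ and between 139 and 154 CPM in SO- embryos, while the values of the other 8 genes overlap between genotypes.

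The promoter of Crot is shown because it was the gene of the 9 that differed, and that of Cpt2 because it encodes a carnitine acyltransferase of the same family whose level was alike in the embryos. Both windows run from 250 bases before to 50 bases after the RefSeq transcription start on GRCm38.p6 and are written 5′ to 3′ along the gene, Crot at chr5:8997097-8997396 and Cpt2 at chr4:107923540-107923839, each on the minus strand. Capitals mark matches to GGGCGG (a GC box) or CCAAT on either strand.
Crot: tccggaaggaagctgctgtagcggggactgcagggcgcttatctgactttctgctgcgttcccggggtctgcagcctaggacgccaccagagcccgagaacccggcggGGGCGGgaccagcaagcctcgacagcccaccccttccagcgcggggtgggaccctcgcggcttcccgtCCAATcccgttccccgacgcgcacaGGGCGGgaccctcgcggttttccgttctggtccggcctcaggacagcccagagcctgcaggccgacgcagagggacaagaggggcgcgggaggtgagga
Cpt2: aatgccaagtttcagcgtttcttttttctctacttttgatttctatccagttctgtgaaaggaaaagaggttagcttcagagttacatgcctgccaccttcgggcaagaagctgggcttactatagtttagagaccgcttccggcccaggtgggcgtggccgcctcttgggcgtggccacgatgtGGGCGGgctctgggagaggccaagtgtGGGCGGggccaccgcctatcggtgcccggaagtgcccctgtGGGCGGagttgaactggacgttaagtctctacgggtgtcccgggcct
All motifs were searched on both strands. The window of Crot held GGGCGG at positions -142 and -49 and CCAAT at -74, counted to the first base of the match with -1 just before the start. By the gene coordinates given above, Crot begins at 8997324, which is in this window and before the RefSeq start. These matches thus lie inside the gene as annotated there. The window of Cpt2 held GGGCGG at -65, -38 and 4 and no CCAAT. Windows matched 8 of the 9 members, with 2 windows for Abcd3, which makes 9 windows. GGGCGG was found in 6 of these 9 windows and in 35.6% of all 32817 windows of this length, and CCAAT in 3 of 9 (Crot, Cpt1a and Ehhadh) and in 37.4% of all. The letters of the octamer that POU factors bind, ATGCAAAT, were in none of the 9 windows and in 1.74% of all. AGGTCANAGGTCA, a repeat of the hexamer recognised by PPAR and RXR receptors, was also in none and in 0.0396% of all, and AGGTCA alone, which this repeat contains, was in 2 of 9 (Acadm and Cpt1a) and in 16.3%. TATAAA was in none of the 9, against 13.6% of all. All 9 windows held more CpG dinucleotides (13 to 45) than the median window (7), and Crot had 29. These are matches of letters in a short window and say nothing of binding.

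The few tested genes near Crot did not pass the threshold that Crot passed, which 2.35% of all genes tested passed by edgeR. With so few neighbours, this count cannot tell whether the difference is confined to Crot at this locus. Within 250000 bases, a distance chosen after the values were seen, 3 other genes had enough counts to be tested. These were the drug transporter Abcb1b (log2 fold change -0.46, standard error 0.55), Tmem243 (0.49, standard error 0.38) and Dmtf1 (0.20, standard error 0.20), with adjusted p of 0.807, 0.656 and 0.743 from edgeR. Within the same distance of any member, Crot included, none of 45 tested genes passed the threshold, so this is not particular to Crot. Of 3 genes that overlap Crot, 1 had counts, the pseudogene Gm15610 with 2 counts in SO+ embryo 1 and none elsewhere.

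Of the other carnitine acyltransferases among the 9, Crat, Cpt1a and Cpt2, each had values that overlapped between genotypes. Crat encodes carnitine acetyltransferase, which acts on short chains in mitochondria and peroxisomes. It had 10.4 and 18.0 CPM in SO+ embryos 1 and 2 and 24.2, 16.1 and 20.5 CPM in SO- embryos 1, 2 and 3. Only SO- embryo 2, with 18 counts, lay below an SO+ embryo. The log2 fold change was 0.56 (standard error 0.30). Exons of Crat share 59 bases with the opposite-strand gene Dolpp1, whose counts exceeded those of Crat in all 5 embryos. The use of strand and the handling of shared reads in counting are not given in the sources used here. How reads of the shared stretch were counted, or whether they were left out, is therefore not known.

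Cpt2, the acyltransferase of the inner mitochondrial membrane that returns acyl groups to coenzyme A, had 108 and 98.7 CPM in SO+ against 93.8, 105.6 and 85.4 CPM in SO- embryos. The log2 fold change of Cpt2 was -0.14 (standard error 0.13). Cpt1a makes long-chain acylcarnitines at the outer mitochondrial membrane and is known as the rate-limiting step of entry. It had 2.58 and 1.41 CPM in SO+ embryos, from 71 and 38 counts, and 0.967, 0.895 and 4.29 CPM in SO- embryos, from 4, 1 and 18 counts. SO- embryo 3 was the highest and SO- embryos 1 and 2 the lowest of the 5. The exact 95% binomial intervals of SO- embryos 1 and 2, 0.264 to 2.48 CPM and 0.0227 to 4.99 CPM, took in the value of SO+ embryo 2, and 3 counts correspond to 2.68 CPM in SO- embryo 2. The interval of SO- embryo 3, 2.55 to 6.79 CPM, lay above SO+ embryo 2, and that of SO- embryo 1 lay below SO+ embryo 1. The SO- embryos differed among themselves by 4.80-fold. Its log2 fold change was 0.21 (standard error 0.74) with all embryos and -1.07 without SO- embryo 3.

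The other peroxisomal members, Abcd3 and Ehhadh, had values that overlapped between genotypes. Abcd3 encodes PMP70, a transporter of the peroxisomal membrane that carries long and branched acyl groups inward. It had 51.2 and 51.6 CPM in SO+ against 47.2, 72.5 and 49.6 CPM in SO- embryos. The SO+ embryos were nearly equal, and SO- embryos 1 and 3 lay just below them and SO- embryo 2 above. The log2 fold change was 0.09 (standard error 0.18). Ehhadh, the peroxisomal bifunctional enzyme with hydratase and dehydrogenase activity, had 7.41 and 9.39 CPM in SO+ against 6.77, 8.95 and 3.34 CPM in SO- embryos. SO- embryo 3 was the lowest, from 14 counts. The log2 fold change was -0.51 (standard error 0.44).

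The values of the mitochondrial chain-shortening enzymes overlapped between genotypes. Acadm, the medium-chain acyl-CoA dehydrogenase, had 84.1 and 83.7 CPM in SO+ against 106.7, 71.6 and 78.3 CPM in SO- embryos. Acadl, the long-chain acyl-CoA dehydrogenase, had 71.3 and 56.7 CPM in SO+ against 73.5, 73.4 and 58.0 CPM in SO- embryos. Hadha, the alpha subunit of the mitochondrial trifunctional protein, had 101.5 and 131 CPM in SO+ against 124, 153 and 118 CPM in SO- embryos. SO- embryos lay on both sides of the SO+ values for Acadm, while for Acadl and Hadha no SO- embryo lay below the lower SO+ embryo. The log2 fold changes were 0.06 (standard error 0.17) for Acadm, 0.09 (standard error 0.17) for Acadl and 0.16 (standard error 0.15) for Hadha.

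**Figure D2:**
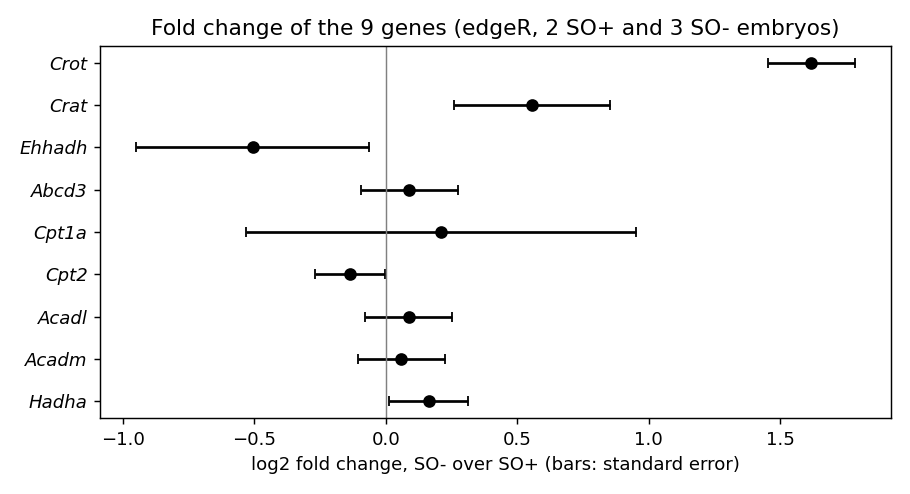
Log2 fold change of SO- over SO+ from edgeR for the 9 genes, with bars of 1 standard error, from 2 SO+ and 3 SO- embryos. Crot stands at 1.62 and the other 8 genes lie between -0.51 and 0.56.

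All 9 genes passed the filter on low counts. Counted over the 9, 7 had a log2 fold change above 0 and the median was 0.09, against a median of -0.002 over all 12067 genes tested. Crot alone fell under an adjusted p of 0.05 by the edgeR fit to the whole table, as did 2.35% of the genes tested (1.42% higher and 0.928% lower in SO- embryos). DESeq2 and limma-voom likewise called Crot alone of the 9, and 2.54% and 0.754% of the genes they tested. It was also the only member whose values did not overlap between genotypes, as those of 29.5% of the genes tested did not (13.9% higher and 15.6% lower in SO- embryos). Since the genes were named with these results known, nothing is read from the counts. By size of fold change, whatever its p, Crot ranked 310 of 12067. For Acadm, Acadl, Hadha and Abcd3 the sign of the fold change depended on the embryos included, reaching -0.16, -0.07, -0.02 and -0.08 when a single embryo was left out.

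Within each library, Crot made up a larger part of the counts of the 9 genes in SO- embryos, a comparison that does not depend on scaling between libraries. It held 8.10% and 10.9% of them in SO+ embryos 1 and 2 and 22.7%, 23.5% and 25.0% in SO- embryos 1, 2 and 3. The other 8 genes together had 437 and 451 CPM in SO+ against 477, 502 and 418 CPM in SO- embryos, so their sum overlapped between genotypes. The ratio of Crot to Cpt2 counts was 0.355 and 0.561 in SO+ against 1.49, 1.46 and 1.63 in SO- embryos. Crot thus had fewer counts than Cpt2 in both SO+ embryos and more in all SO- embryos. Its ratio to Crat was 3.70 and 3.07 in SO+ against 5.80, 9.56 and 6.78 in SO- embryos. Relative to Abcd3 the ratio was 0.752 and 1.07 in SO+ against 2.97, 2.12 and 2.80 in SO- embryos.

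Levels were compared between genes as CPM per kilobase of exon, with the exons of all annotated transcripts merged. In SO+ embryos the level was 43.3 ± 2.88 for Cpt2, 31.9 ± 5.14 for Acadl, 21.4 ± 0.0717 for Acadm and 13.3 ± 2.42 for Hadha (SD, n = 2). Below these came Crot at 8.61 ± 2.18, Abcd3 at 7.79 ± 0.0402, Ehhadh at 2.82 ± 0.470, Crat at 2.64 ± 1.00 and Cpt1a at 0.261 ± 0.109 (SD, n = 2). In this order Crot and Abcd3 overlapped in range, as did Ehhadh and Crat, and the other neighbours did not. In SO- embryos Crot ranked 3 of 9, at 26.5 ± 1.51, between Acadl at 34.1 ± 4.46 and Acadm at 21.9 ± 4.76 (SD, n = 3), and its range overlapped that of Acadm but not that of Acadl. Cpt2 was again the highest at 39.7 ± 4.24 and Cpt1a the lowest at 0.269 ± 0.254 (SD, n = 3). With the longest transcript as the length, Crot ranked 5 in SO+ and 1 in SO- embryos, where it had 48.2 CPM per kilobase. Its range there overlapped that of Acadm, which was above Crot in SO- embryo 1 (52.1 against 46.8). Other places in the order also depended on the length. With the longest transcript, Acadm (41.0) lay above Acadl (33.4) in SO+ embryos without overlap, and Crat (3.37) above Ehhadh (2.82). Cpt2 then ranked 3 in SO- embryos.

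Markers of the 2 tissues in each sample were set beside Crot. The 14 VE markers summed to 4981 and 5163 CPM in SO+ embryos and to 7047, 7235 and 4650 CPM in SO- embryos 1, 2 and 3. Of these markers 12 had a log2 fold change above 0 (median 0.39) and 1, Sox17, had an adjusted p under 0.05 from edgeR. For this and the other marker lists, 5997 of all 12067 genes tested were above 0 and 2.35% were called. Sox17 and Foxa2 are also known markers of the definitive endoderm, and without them 10 of 12 markers were above 0, none was called, and the sums were 4922 and 5055 CPM in SO+ against 6899, 7032 and 4528 CPM in SO- embryos, a choice made after the values were seen, as for the other sums below that leave out genes. None of the 14 was at 0 in all embryos. SO- embryo 3 had a lower VE sum than either SO+ embryo and 139 CPM of Crot. Per 1000 CPM of VE markers, Crot had 7.74 and 10.7 CPM in SO+ against 19.9, 21.3 and 29.9 CPM in SO- embryos. The 8 epiblast markers summed to 5865 and 5201 CPM in SO+ embryos and to 3189, 2899 and 4058 CPM in SO- embryos, and 2 of them, Dnmt3b and Utf1, were called lower (adjusted p = 0.00392 and 4.06e-04 from edgeR). Of the 8, 3 were above 0, and the median was -0.16. Dnmt3b alone had 3983 and 3264 CPM in SO+ against 1708, 1447 and 2286 CPM in SO- embryos. The other 6 markers, without Dnmt3b and Utf1, summed to 1372 and 1544 CPM in SO+ against 1388, 1387 and 1623 CPM in SO- embryos and overlapped between genotypes. Otx2, 1 of these 6, is described by the authors in both epiblast and VE, so this sum does not measure epiblast alone. In bulk samples the part of Epcam and Cdh1 that came from VE cells is not known either, and both weigh more in the sum than Otx2. Epcam had 426 and 426 CPM in SO+ and between 404 and 479 CPM in SO- embryos. Cdh1 had 374 and 437 CPM in SO+ and between 345 and 422 CPM in SO- embryos. Hand1, a transcription factor of extra-embryonic mesoderm, was the 1 of 6 nascent mesoderm markers that was called, and it was higher (log2 fold change 3.04, adjusted p = 0.00754 from edgeR). Its level was low, at most 24.2 CPM, and of the other 5 markers 2 were above 0 and none was called, with sums of 269 and 497 CPM in SO+ against 401, 375 and 243 CPM in SO- embryos. The 9 ExE markers summed to between 229 and 274 CPM in SO+ and between 244 and 313 CPM in SO- embryos, with no marker called among 6 tested and Rhox9 at 0 counts in the SO- embryos. Most of that sum was Eomes, which the primitive streak also expresses, and the other 8 markers summed to between 20.0 and 21.5 CPM in SO+ and between 20.0 and 35.8 CPM in SO- embryos. Among these, Bmp4 did not overlap between genotypes (log2 fold change 1.27, standard error 0.48, adjusted p = 0.242 from edgeR). The part of these tissues in the level of Crot was not tested beyond these values.

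**Figure D3:**
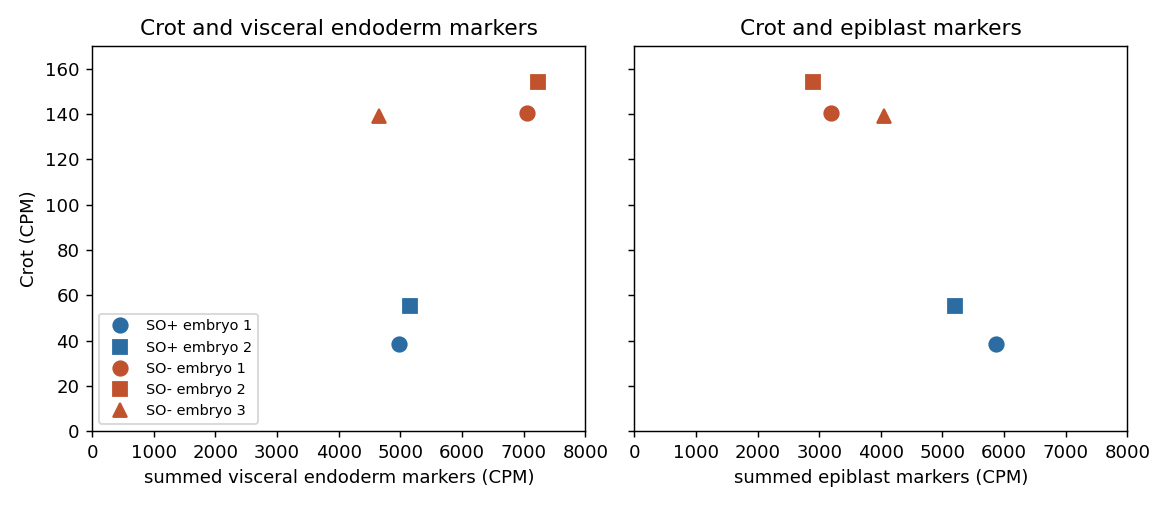
Crot (CPM) in each embryo against the summed CPM of 14 VE markers (left) and of 8 epiblast markers (right), SO+ in blue and SO- in orange. SO- embryo 3 has a VE sum of 4650 CPM, below both SO+ embryos, and 139 CPM of Crot.

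Around the 9 genes, 7 lists of 99 genes in all described the rest of the pathway, of which 90 were not members. Enough counts to be tested were found for 78 of the 90. By edgeR none of the 78 passed 0.05 after adjustment over the whole table, where 2.35% of all genes did. At an unadjusted p under 0.05 there were 9 of 78 (11.5%), against 13.7% of all genes tested, and values did not overlap between genotypes for 22 of 78 (28.2%), against 29.5%. DESeq2 called 1 (Nudt19) and limma-voom called none. The median log2 fold change of the 78 was 0.07, and 43 were above 0, as were 5997 of the 12067 genes tested.

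The carnitine shuttle list had 6 tested genes, 4 of them above 0, and values of 1 did not overlap between genotypes. That gene was Cpt1c, a palmitoyltransferase isoform known mainly from neurons and singled out after its values were seen, with 13.5 CPM on average in SO+ and 6.07 CPM in SO- embryos (log2 fold change -1.19, standard error 0.37, adjusted p = 0.134 from edgeR). Beside the members named above, Slc25a20, the carrier that exchanges acylcarnitine for carnitine across the inner mitochondrial membrane, had a log2 fold change of 0.16 (standard error 0.28). Of 17 mitochondrial beta-oxidation genes, all tested and none called, 13 were above 0 and the range was narrow, from -0.29 to 0.35. The 3 with the highest level per kilobase were the electron transfer flavoprotein subunits Etfa (0.07, standard error 0.13) and Etfb (0.32, standard error 0.16) and the thiolase Acaa2 (0.35, standard error 0.18).

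The peroxisomal list held Crot and 21 other tested genes, whose fold changes lay between -0.72 and 0.52. Phyh, the phytanoyl-CoA hydroxylase that starts the breakdown of branched chains, had 95.5 CPM on average in SO+ and 131.7 CPM in SO- embryos (log2 fold change 0.45, standard error 0.13, adjusted p = 0.0921 from edgeR). Nudt19, which hydrolyses coenzyme A in peroxisomes, had 120.7 CPM in SO+ and 80.8 CPM in SO- embryos (-0.55, standard error 0.14, adjusted p = 0.0633 by edgeR, and 0.0476 by DESeq2). These values did not overlap between genotypes for either gene, and the directions were opposite. Pecr, a reductase of unsaturated acyl-CoA, was at 0.09 (standard error 0.15).

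The peroxisome biogenesis list, made of Pex genes and Cat, showed no called gene among 17 tested, with a median of 0.07. The highest per kilobase were Cat, the peroxisomal catalase (-0.04, standard error 0.17), the ubiquitin ligase subunit Pex2 (0.17, standard error 0.17) and the ATPase Pex6 (-0.11, standard error 0.16).

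Among genes of uptake and activation, 9 were tested, 3 lay above 0 and the median was -0.05. Fabp3, a fatty acid binding protein singled out after its values were seen, had 10.6 CPM in SO+ and 3.31 CPM in SO- embryos, without overlap (-1.52, standard error 0.53, adjusted p = 0.199 from edgeR). Slc27a4 of the same list, also singled out, went the other way without overlap. Its means were 14.5 CPM in SO+ and 23.6 CPM in SO- embryos (0.67, standard error 0.25, adjusted p = 0.237 from edgeR). Fabp5, a fatty acid binding protein, was at -0.23 (standard error 0.12) and the acyl-CoA synthetase Acsl3 at 0.13 (standard error 0.15). Acsl4, a synthetase that prefers arachidonic acid, had 77.7 CPM in SO+ and 50.5 CPM in SO- embryos (-0.62, standard error 0.17, adjusted p = 0.0793 from edgeR). Of 10 regulators 6 were tested, with 3 above 0. Ppara and Pparg, nuclear receptors that control lipid metabolism, had 4 and 0 counts in the 5 embryos and were not tested, and neither were Ppard and Ppargc1a. Hnf4a, a nuclear receptor that is also one of the VE markers, had 37.0 CPM in SO+ and 63.9 CPM in SO- embryos (0.78, standard error 0.23, adjusted p = 0.113 from edgeR). Esrra, an orphan nuclear receptor, was at 0.06 (standard error 0.40) and Mlycd, which removes the inhibitor malonyl-CoA, at 0.37 (standard error 0.40).

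As a pathway, fatty acid synthesis runs opposite to oxidation. Of its 10 listed genes 8 were below 0, as were 6070 of the 12067 genes tested, and none was called. The median was -0.15 and the range -0.56 to 0.34. The list was written with earlier results of these data known, so nothing is read from this count. Acly, which supplies cytosolic acetyl-CoA, was at -0.15 (standard error 0.10), the desaturase Scd2 at -0.15 (standard error 0.11) and the elongase Elovl5 at -0.14 (standard error 0.11). Values did not overlap between genotypes for 6 of the 10 genes, against 5 of 17 mitochondrial, 5 of 22 peroxisomal, 1 of 17 biogenesis, 3 of 9 uptake and 2 of 6 regulator genes, and against 29.5% of all genes tested.

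**Figure D4:**
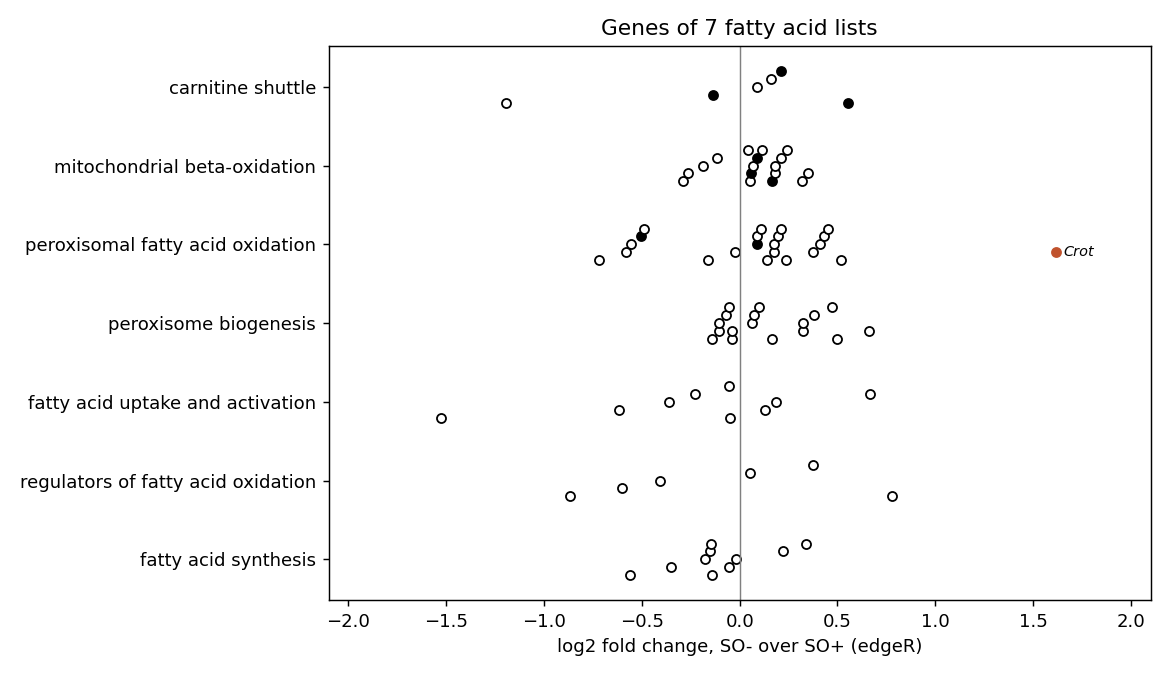
Log2 fold change of SO- over SO+ from edgeR for the tested genes of 7 lists. Crot (orange) is at 1.62, the other members (filled) and non-members (open) lie between -1.52 and 0.78.

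Over 9144 genes that are no members and have a mean log2 CPM of at least 3, the 5 whose profile was most like that of Crot were found by the root mean square difference of log2 CPM over the 5 embryos, each profile being centred on its own mean. These were Tapbp, a chaperone of MHC class I peptide loading (0.0892), Flt1, a VEGF receptor (0.103), the RNA-binding protein gene Rbms1 (0.108), the LIM homeodomain gene Isl1 (0.123) and Asb4 (0.126). Like Crot, each had its lowest value in SO+ embryo 1, the next in SO+ embryo 2 and higher values in all SO- embryos. This order and direction follow from picking the genes by likeness to Crot over these same embryos. Tapbp, for example, had 25.6 and 39.7 CPM in SO+ against 113, 112 and 98.5 CPM in SO- embryos. Log2 fold changes of the 5 reached 1.82, in Isl1. Among the members, Crat was the nearest to Crot at 0.593, with 5.26% of the 9144 genes nearer, and Cpt1a the farthest at 1.28.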

How the data were processed

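RNA of single embryos had been amplified by SmartSeq2 with polyA selection. The authors removed adapters, aligned reads with STAR to GRCm38/mm10, counted them per gene with HTSeq on the Ensembl annotation and deposited whole-number counts, without normalization, for 5 embryos. Members and lists were chosen with earlier results of these data known. Embryos were grouped by their labels. Counts were tested in R 4.3.3 with edgeR 4.0.16 by its quasi-likelihood test, after filterByExpr and TMM scaling and with no term but genotype, and p-values were adjusted by Benjamini-Hochberg over all genes tested and a threshold of 0.05. A standard error is the size of the log2 fold change over the root of its F. CPM use library totals, and exon lengths come from GENCODE M21, which matched 99.48% of genes. Promoter windows are from RefSeq. Named genes were the members, list genes past the threshold, the 3 tested genes of each list with the highest level per kilobase, the 5 profiles nearest to Crot, and Pou5f1. Alternatives were DESeq2 1.42.0, limma-voom (limma 3.58.1), other scaling and filters, the replicate number as a block, each embryo left out and another gene length. The fits were tested on simulated data. Within a genotype, no pair of libraries agreed within sampling noise, with chi-square over its degrees of freedom at 2.78 to 30.3, and each was counted as 1 sample. Depth ran from 1117566 to 27538119 counts, at which 3 counts are 2.68 and 0.109 CPM.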

Additional observations from a re-analysis of the deposited data

How the results depend on the processing

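The log2 fold change of Crot lay between 1.37 (without SO+ embryo 1) and 1.90 (without SO+ embryo 2) under 12 alternatives and kept its direction in all of them. The number of genes called over the whole table was less stable: 283 (171 higher and 112 lower in SO- embryos) became 91 (75 and 16) with limma-voom and 929 (523 and 406) with the replicate number as a block. With 1 embryo left out it ranged from 35, without SO- embryo 2, to 573, without SO+ embryo 2 (21 to 314 higher, 14 to 259 lower), and was 46 without SO- embryo 1 and 180 without SO+ embryo 1. A lone SO+ embryo is there assumed to vary like the others. Of the 7 lists, 1 gene (Crot) was called, 2 with DESeq2, 6 with the replicate block and between 1 and 6 with 1 embryo left out, the 6 without SO+ embryo 2. The share of calls that were higher was 60.4%, and 82.4% with limma-voom. Same-numbered embryos are different animals and deviated together by correlations of 0.0077 and 0.11 over 12067 genes. For SO+ embryo 1 and SO- embryo 3, which share no number, it was 0.13. With 2 SO+ embryos the deviations of one mirror those of the other, so these correlations cannot settle whether the number pairs embryos. Signs turned for uncalled genes only. With 1 embryo left out, log2 fold changes ranged from -0.0646 to 0.4077 for Slc25a20, -0.0181 to 0.199 for Pecr, -0.2755 to 0.2432 for Cat, -0.0623 to 0.2154 for Acsl3 and -0.0416 to 0.114 for Esrra, and limma-voom gave 0.0158 for Cat. Signs also turned for 5 members, Acadm, Acadl, Hadha, Abcd3 and Cpt1a, and Cpt1a was at -1.19 with the block. The block called Nudt19, Phyh, Hnf4a, Elovl1 and Fabp3 beside Crot. In the block fit SO- embryo 3 stands alone in its block and adds nothing to the genotype difference. Depth limits Cpt1a and Ehhadh most, with at most 18 and 28 counts in an SO- embryo.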
